A study of Mus musculus with 4 samples.

Results

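High glucose in podocytes with a control hairpin was described from 1 library of glucose-exposed cells (sh-NC/HG) set against 1 library of the same cells without added glucose (sh-NC). These are 2 of the 4 libraries of the series. Of the 56393 genes in the deposited table, 14187 reached a count of 50 or more on average across the 4 libraries, and each of these was described by the log2 ratio of its scaled level in sh-NC/HG over sh-NC. With 1 library on each side there is no spread between replicates. No test could be made, each value describes these libraries, and an effect of glucose and a difference between any 2 cultures cannot be told apart.

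RNA sequencing was done on MPC, a mouse podocyte line that is conditionally immortalised: per the labels, growth was at 33 °C in medium holding 10% serum and interferon-gamma at 20 U/ml, and removal of the interferon at 37 °C for 7 days gave differentiated cells. The groups crossed 2 hairpins with 2 glucose conditions: sh-NC carried the control hairpin, sh-NC/HG carried it and received D-glucose to 40 mmol/L for 24 h, sh-JAML carried a hairpin against Jaml, and sh-JAML/HG carried that hairpin and received the same glucose. The labels name neither the glucose level of the medium in the cultures without added glucose nor an osmotic control. The design text of the series counts 4 treated and 4 untreated samples, whereas 4 libraries were analysed, and the columns for sh-NC and sh-NC/HG carry names that state no hairpin.

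Podocytes cover the outside of the glomerular capillaries, and the slit diaphragm between their foot processes is the last layer of the kidney filter. High glucose in culture is used as a model of the diabetic glomerulus. Glucose taken up by a cell enters glycolysis and its side paths, and the sensors MondoA and ChREBP respond to its phosphorylated forms by raising Txnip and Arrdc4. Cytokine receptors of the gp130 family act through STAT3, receptors for microbial products and interleukins act through NF-kB, and interferons act through STAT and IRF factors on a large set of antiviral genes. Type II interferon also raises Ciita, the transactivator of the MHC class II genes.

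The deposited counts summed to between 79330461 and 94341975 per library, and the highest total was that of sh-NC/HG. Low values piled up at multiples of 4, so 4 units were taken as 1 sequenced fragment, and the floor was 3 fragments, or 12 units, per library. Levels are counts relative to the TMM-scaled library total (CPM), and where 4 levels stand in a row they are those of sh-NC, sh-NC/HG, sh-JAML and sh-JAML/HG, in that order. A fold is the ratio of 2 such levels, and the range in parentheses after it is its exact 95% interval from the fragments counted. Intervals and floors cover counting error only, not the variation between cultures. Because CPM is not scaled by gene length, levels are compared between libraries and not between genes. In bulk RNA, fewer cells of a type and less RNA per cell cannot be told apart. Across all genes sh-NC/HG was most often at an extreme: it held the highest level of the 4 in 36.0% of genes and the lowest in 36.3%, against 21.3% and 21.6% for sh-NC.

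The labelled cell type was checked against markers. Synpo, which encodes the actin-bundling protein synaptopodin, had 218, 246, 172 and 180.3 CPM. Nes, the intermediate filament gene of mature podocytes, had 481, 619.5, 394 and 408 CPM. Nphs1, which encodes nephrin of the slit diaphragm, was low, with 0.44, 0.193, 0.224 and 0.201 CPM. Wt1, a podocyte transcription factor, had 1.17, 0.632, 0.959 and 0.957 CPM, and Tcf21 was at 0 in every library. Thus the cytoskeletal markers were present and this slit diaphragm marker was near the limit of detection in each library, also without added glucose.

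Of the markers of other cell types, the leukocyte, endothelial and erythroid lists had low summed levels, whereas the tubule and the mesangial and fibroblast lists did not. Of 19 leukocyte markers 4 passed the count minimum, and the summed level of the list was 72.8, 60.6, 66.3 and 63.6 CPM. Most of that sum was Csf1r, with 62.1, 50, 55.9 and 56.3 CPM, and the others that passed were Cd68, Lyz2 and Spi1. Ptprc, the common leukocyte antigen, had counts of 25, 16, 24 and 0, and Cd163 and Ms4a1 were at 0 in all libraries. Of 14 endothelial markers 4 passed, with summed levels of 27.4, 37.6, 23.8 and 27.6 CPM, and Kdr, Tie1, Erg and Cldn5 were at 0. Of 20 tubule markers 6 passed, with sums of 1545, 1745, 1587 and 1251 CPM, and Slc34a1 and Umod were at 0. Of 16 mesangial and fibroblast markers 9 passed, with sums of 2379.7, 1650.0, 1933 and 1923 CPM, and Ren1, Itga8 and Lum were at 0. Within these lists Flt1, a VEGF receptor gene, and Plvap were higher in sh-NC/HG, with 1.02, 3.78, 1.28 and 0.993 CPM and 1.08, 2.95, 1.16 and 1.69 CPM, as was Des (desmin), which injured podocytes also express, with 0.453, 2.31, 0.112 and 0.201 CPM. Des passed the minimum only through sh-NC/HG. Other members were lower there than in sh-NC, among them Acta2 (1069, 677, 729 and 742 CPM) and Vim (1036, 640, 957 and 963 CPM). Ratios above and below 0 numbered 2 and 2 for leukocyte and 3 and 1 for endothelial markers. They numbered 3 and 3 for tubule and 4 and 5 for mesangial and fibroblast markers. The 4 globin genes past the minimum went the other way from most lists in that both libraries without added glucose had more: Hba-a1 had 12.3, 0.3, 13.4 and 0.201 CPM, and the summed level of 10 erythroid genes was 38.0, 1.17, 42.8 and 0.851 CPM. The part of erythroid RNA in the results below was not tested.

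At the 2-fold mark, 660 of the 14187 genes (4.65%) were higher in sh-NC/HG and 464 (3.27%) were lower. In the sh-JAML pair, which shares no library with the control-hairpin pair, 186 genes (1.31%) were higher and 222 (1.56%) were lower at the same mark. The middle 50% of log2 ratios ran from -0.23 to 0.24 in the control-hairpin pair and from -0.13 to 0.11 in the sh-JAML pair, and both medians were 0.00. Of the 660 higher genes, 47 were also at least 2-fold higher in the sh-JAML pair and 51 were at least 2-fold lower there. Of the 464 lower genes, 37 were lower and 28 higher in that pair. The median sh-JAML ratio was -0.01 for the higher genes and -0.03 for the lower ones. The shares of 4.65% higher and 3.27% lower are the background of each list count below. Of the 660 higher genes 136 reached the count minimum only through sh-NC/HG, with a mean under it in the other 3 libraries, so such genes had to be high there.

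Genes past the 2-fold mark tended to be sparse. Their median mean count was 217 for the higher genes and 276 for the lower ones, beside 2626 for all genes. Between mean counts of 50 and 100, 15.5% of genes were higher and 9.76% lower, and above 2000 these shares were 1.21% and 1.36%. Among protein-coding genes the share of higher genes also went with base composition, taken as the GC content of the longest transcript. It was 3.07% in the fifth of these genes with the lowest GC content and 6.22% in the fifth with the highest. Of the lower genes 24.8% shared at least 10% of their exon bases with another gene, beside 17.2% of all genes and 17.7% of the higher ones. Counts on shared bases can be assigned to either gene, and no source used here gives whether strand was used in counting. The part of depth, GC content and shared bases in the ratios was not tested.

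**Figure D1:**
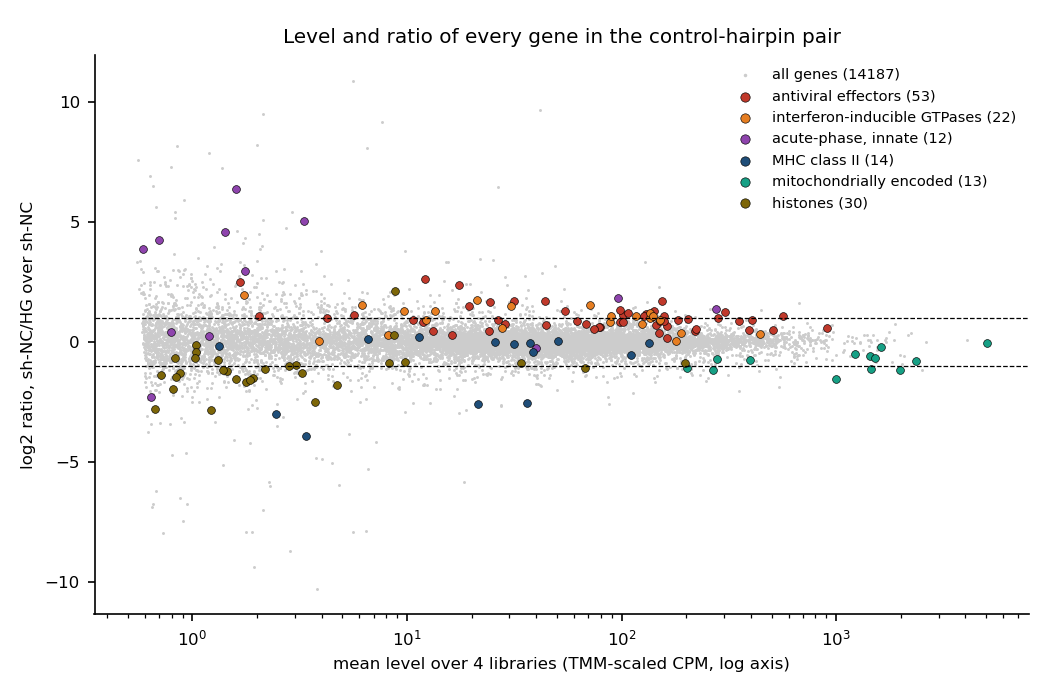
Each point is 1 of 14187 genes, with its mean level over the 4 libraries (TMM-scaled CPM, log axis) against the log2 ratio of sh-NC/HG over sh-NC; dashed lines mark 2-fold and colours mark 6 gene lists. The spread of ratios is widest at low levels, the 53 antiviral effectors and 22 interferon-inducible GTPases all lie above 0, and the 13 mitochondrially encoded protein-coding genes all lie below 0.

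Among cytokine receptors and the adaptors behind them, 2 receptors of the gp130 family were higher in the glucose-exposed control cells. Lifr, which encodes the receptor for leukemia inhibitory factor (chromosome 15, 7090614 to 7197489 on mm10), had 2.26, 31.4, 4.02 and 1.61 CPM and the level in sh-NC/HG exceeded that in sh-NC by 13.9-fold (10.3 to 19.2). Osmr, the oncostatin M receptor gene, had 23.7, 85.5, 16 and 18.4 CPM, a difference of 3.6-fold (3.26 to 3.99). In both genes sh-NC/HG stood above the other 3 libraries, and the sh-JAML pair differed by 2.5-fold (1.66 to 3.87) in the opposite direction for Lifr and by 1.15-fold (0.989 to 1.34) in the same direction for Osmr. Il6st, which encodes the shared subunit gp130 itself, had 727, 771, 379 and 399 CPM. Tlr1, which acts with Tlr2 in sensing bacterial lipopeptides, had 1.11, 2.74, 0.598 and 0.697 CPM. Of 41 listed receptor and adaptor genes 37 passed the minimum. They counted 3 higher (Lifr, Osmr, Tlr1; 8.11%, beside 4.65% of all genes) and 0 lower (beside 3.27%), 25 had a ratio above 0, and the median log2 ratio was 0.17, beside 0.06 in the sh-JAML pair.

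Downstream of these receptors, Socs3, the feedback inhibitor of gp130 signalling, had 10.4, 36, 10.7 and 11.7 CPM, a difference of 3.45-fold (2.95 to 4.03). Bcl3, an atypical IkB protein that binds NF-kB in the nucleus, had 4.12, 8.75, 4.31 and 3.04 CPM, a difference of 2.12-fold (1.63 to 2.77). Nfkbia, the classical NF-kB inhibitor gene and itself an NF-kB target, had 38.1, 58.9, 40.3 and 36.3 CPM, a difference of 1.55-fold (1.42 to 1.69) that did not reach 2-fold. The list of NF-kB subunits and feedback genes, which also holds Socs3, Socs1, Cish and Stat3, was near even as a whole. Of 31 past the minimum, 2 were higher (Socs3 and Bcl3, 6.45%, beside 4.65% of all genes) and 0 lower (beside 3.27%). Ratios above 0 numbered 16, with a median of 0.01. Tnfaip3, another feedback inhibitor of NF-kB, had the lowest ratio, with 34.1, 19.7, 16.8 and 24.5 CPM (1.73-fold (1.53 to 1.95) lower).

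Chemokine genes held some of the largest differences in the pair. Cxcl1, a chemokine that attracts neutrophils, had 7.72, 81.5, 7.95 and 3.3 CPM, so that sh-NC/HG was 10.6-fold (8.93 to 12.5) above sh-NC, while sh-JAML/HG was 2.41-fold (1.81 to 3.24) below sh-JAML. Neighbouring genes on chromosome 5 were also highest in sh-NC/HG and lowest in sh-JAML/HG. Cxcl5 (chromosome 5, 90759360 to 90761624) had counts of 20, 1053, 9 and 0, a level 44.9-fold (19 to 139) higher in sh-NC/HG. Ppbp (chromosome 5, 90768518 to 90770063), the gene of another neutrophil-attracting chemokine, had 17, 125, 19.1 and 10.1 CPM, a difference of 7.32-fold (6.53 to 8.21). Ccl20, which attracts cells bearing the receptor CCR6, had 0.515, 5.27, 0.449 and 0.426 CPM and differed by 10.2-fold (5.51 to 22.4). The opposite was seen for Ccl17, a ligand of CCR4, with 16.5, 5.3, 10.8 and 9.78 CPM and a level 3.1-fold (2.51 to 3.84) lower in sh-NC/HG.

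Of 49 chemokine and cytokine genes 28 passed the minimum and 7 were at 0 in all libraries. In sh-NC/HG over sh-NC 9 were higher (Cxcl5, Cxcl1, Ccl20, Il33, Il34, Ccl28, Ccl7, Cxcl11 and Il11), 1 was lower (Ccl17) and 23 lay above 0. The shares were 32.1% higher and 3.57% lower, beside 4.65% and 3.27% of all genes. The median log2 ratio was 0.62, beside -0.10 in the sh-JAML pair. Of the 9 higher genes 3 (Cxcl5, Ccl20 and Il11) passed the minimum only through sh-NC/HG, so the counts and the median describe the list and are not evidence about it. The most abundant members differed less: Cxcl10, an interferon-induced chemokine, had 206, 283, 159.7 and 116 CPM (1.37-fold (1.32 to 1.43) higher), and Csf1, the macrophage growth factor gene, had 635, 805, 485 and 493 CPM (1.27-fold (1.24 to 1.3) higher).

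The promoter of Cxcl1 is shown because it holds matches to the NF-kB core searched for, GGGANNTTC on either strand, which 3.62% of the 12725 promoters of genes past the minimum hold. The sequence is from RefSeq (GRCm38.p6), chr5:90890995-90891294, plus strand, and runs from 250 bases before to 50 bases after the annotated start. The capitals mark a pair of overlapping matches that begin 71 and 69 bases before the start. A match is a description of letters, not a shown binding site. Of 26 promoters of the chemokine list 3 held the motif (11.5%), and of 12 acute-phase promoters 0 did. Of the antiviral effector promoters described below 6 of 52 held it (11.5%), and of the GTPase promoters 2 of 14 did (14.3%).
Cxcl1 promoter: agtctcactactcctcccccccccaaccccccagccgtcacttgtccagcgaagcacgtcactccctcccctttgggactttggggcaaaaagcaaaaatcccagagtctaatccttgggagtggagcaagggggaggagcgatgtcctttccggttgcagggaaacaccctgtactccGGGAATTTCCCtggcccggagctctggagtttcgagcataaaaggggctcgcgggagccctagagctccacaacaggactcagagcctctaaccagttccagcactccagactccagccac

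Several genes of the acute-phase and innate defence list were barely detected in sh-NC and were detected clearly in sh-NC/HG. Lcn2, which encodes an iron-carrier-binding lipocalin used as a marker of kidney injury, had counts of 27, 1092, 56 and 42, a level 34.5-fold (15.9 to 83.5) higher in sh-NC/HG. Saa3, a serum amyloid gene, had 16, 479, 27 and 0 and differed by 25.5-fold (9.73 to 95.4). Nos2, the inducible nitric oxide synthase gene, had 5, 583, 5 and 0. Its count in sh-NC is about 1 fragment, so the ratio of 99.4-fold (22 to 4948) is known only within that wide interval. The other 3 libraries held at most 56 units of any of these 3 genes.

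Of 32 listed acute-phase and innate genes 12 passed the minimum. Several passed it through their count in sh-NC/HG, so a count over those that passed is a description and not evidence about the list. Higher were Nos2, Saa3, Lcn2, Serpina3i, Serpina3f, Acod1, Lbp and Cp. Lbp, the lipopolysaccharide-binding protein gene, had 57.8, 204, 69.7 and 53.4 CPM, and Cp, which encodes the copper-carrying ferroxidase ceruloplasmin, had 212, 546, 172 and 167 CPM in the 4 libraries. Ptx3, a long pentraxin gene, was lower, with 1.06, 0.204, 0.635 and 0.674 CPM and a difference of 5.19-fold (1.81 to 16.7). In the sh-JAML pair the median log2 ratio of the 12 genes was -0.26.

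In the complement list, C3, the central component of the cascade, had 41.2, 420.4, 27.7 and 25.6 CPM, a difference of 10.2-fold (9.51 to 11), and the sh-JAML libraries lay below both control-hairpin libraries. C4b, a component of the classical and lectin arms, had counts of 17, 722, 21 and 27 and differed by 36.2-fold (14.7 to 142). Masp1, a protease of the lectin arm, was lower, with 189, 67.5, 158 and 154 CPM and a difference of 2.8-fold (2.64 to 2.97), and C2, of which 46.9% of exon bases are shared with another gene, had 2.06, 0.375, 2.09 and 3.39 CPM. Of 15 members past the minimum 5 were higher (33.3%, beside 4.65% of all genes), 2 lower (13.3%, beside 3.27%) and 9 above 0 (median 0.45, sh-JAML pair 0.05). Of the 5 higher genes 2, C4b among them, passed the minimum only through sh-NC/HG, so this count too is a description.

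**Figure D2:**
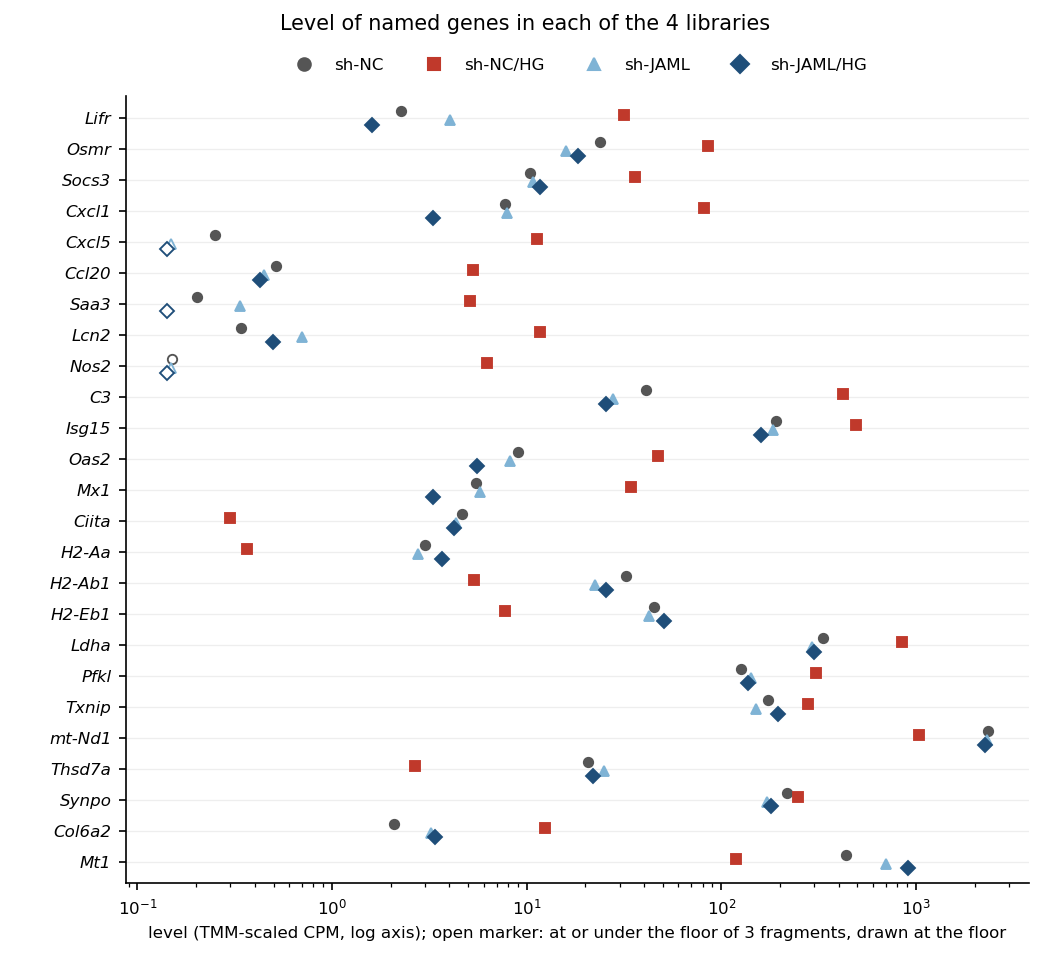
Level of 25 named genes in the 4 libraries (TMM-scaled CPM, log axis; 1 marker per library, open where the count is at or under the floor of 3 fragments and drawn at that floor). In all 25 genes the sh-NC/HG marker lies outside the range of the other 3, with Lifr at 31.4 against at most 4.02 CPM and Ciita at 0.3 against at least 4.23 CPM. Many of the 25 were named for a large ratio in this pair, so their position is a description and not evidence. Among all genes at least 2-fold higher sh-NC/HG was the highest library in 90.3%, and among those lower it was the lowest in 88.8%.

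Antiviral effector genes of the interferon response shared a direction. All 53 antiviral effector genes past the minimum (of 58 listed) had a ratio above 0 in sh-NC/HG over sh-NC, with log2 ratios from 0.17 to 2.63 and a median of 0.91. Of these, 21 were at least 2-fold higher (39.6%, beside 4.65% of all genes) and 0 were lower. Of the 53 genes, 51 had their highest level of the 4 libraries in sh-NC/HG, beside 36.0% of all genes. In the sh-JAML pair 11 of the 53 lay above 0 and 0 reached 2-fold in either direction, with a median of -0.12.

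Mx1, which encodes a dynamin-like GTPase that blocks influenza-type viruses, had 5.51, 34.2, 5.73 and 3.3 CPM, a difference of 6.21-fold (5.06 to 7.62). Oas2, an oligoadenylate synthetase gene whose product activates RNase L, had 9.04, 47.2, 8.17 and 5.53 CPM, a difference of 5.22-fold (4.45 to 6.14). Phf11b had 0.754, 4.26, 0.66 and 0.993 CPM and differed by 5.65-fold (3.29 to 10.5). Members with higher counts are given for scale: Ifit3, an RNA-binding restriction factor gene, had 354, 678, 331 and 263 CPM, Bst2 (tetherin) had 842, 1257, 791 and 744 CPM and Ifi27 had 149, 167, 165 and 167 CPM. Each of these 3 was well above the floor in all 4 libraries, and Ifi27 was close to even across them.

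Upstream of these effectors, the signalling genes had a median log2 ratio of 0.43 over 23 members, with 7 higher (Irf8, Isg15, Trim30a, Irf7, Stat2, Usp18 and Ptpn6), 0 lower and 19 above 0. Irf8, a transcription factor induced by interferon-gamma, had 23.3, 61, 27.7 and 31.5 CPM (2.62-fold (2.36 to 2.92)). Isg15, the ubiquitin-like modifier, had 191, 494, 184 and 159.6 CPM (2.58-fold (2.49 to 2.68)), and Trim30a had 82.6, 201, 76.8 and 75.1 CPM. Irf1, another early interferon-gamma target, had 47.6, 57.1, 86.7 and 82 CPM, and Irf3, which is activated by phosphorylation rather than by new transcription, had 41.9, 39.8, 42.4 and 44 CPM. The receptor genes were close to even for Ifnar1 (149, 159, 109 and 149.97 CPM) and Ifngr1 (117, 127, 133 and 119 CPM) and somewhat higher for Ifnar2 (33.7, 59.2, 37.1 and 35.7 CPM).

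Sensors of foreign nucleic acid and of bacterial cell wall were on the high side. Of 22 past the minimum 7 were higher (31.8%, beside 4.65% of all genes), 0 lower (beside 3.27%) and 18 above 0, with a median of 0.69 (sh-JAML pair -0.08). Nod2, a sensor of muramyl dipeptide, had 0.39, 3.42, 0.511 and 0.887 CPM, a difference of 8.77-fold (4.12 to 20.4) from low counts, and passed the minimum only through sh-NC/HG. Zbp1, a sensor of Z-form nucleic acid that can start necroptosis, had 35.3, 114, 29.98 and 29.4 CPM (3.24-fold (2.98 to 3.53)). Dhx58, the RIG-I-like regulator LGP2, had 38.2, 109, 38.5 and 37 CPM (2.84-fold (2.62 to 3.09)). The adaptor Mavs, by comparison, had 46.7, 44.1, 49.9 and 54 CPM.

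All 22 interferon-inducible GTPase genes (guanylate-binding proteins and immunity-related GTPases, which attack the vacuoles of intracellular pathogens) had a ratio above 0. Of them 11 were at least 2-fold higher (50%, beside 4.65% of all genes) and 0 were lower (beside 3.27%). The median log2 ratio was 1.03, and sh-NC/HG held the highest level of the 4 libraries in all 22. Gbp11 had 1.01, 3.91, 0.785 and 1.26 CPM (3.89-fold (2.37 to 6.65)), and F830016B08Rik had 13.2, 44.7, 15.9 and 10.9 CPM (3.4-fold (2.96 to 3.9)). Gbp10 had 4.02, 11.9, 4.22 and 4.55 CPM (2.95-fold (2.28 to 3.82)), but 46.3% of its exon bases are shared with another gene. At the other end, Gbp2 had 212, 216, 155 and 136 CPM. The sh-JAML pair had a median of -0.09 for these genes, with 8 above 0.

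Promoters of these genes were searched for the core of the interferon-stimulated response element, the site bound by interferon-activated factors, written as GAAANNGAA on either strand. It was found in 24 of 52 promoters of antiviral effectors (46.2%) and in 11 of 14 of the GTPases (78.6%), beside 7.10% of the promoters of all genes past the minimum. Among antiviral effectors, 14 of 17 promoters of members at least 2-fold higher held it (82.4%) and 10 of 35 of the remaining members did (28.6%). Among the GTPases the shares were alike, with 4 of 5 (80.0%) and 7 of 9 (77.8%). Of the 543 promoters of all genes at least 2-fold higher 14.2% held it, and of the 336 promoters of lower genes 7.44% did. The shares count promoters, of which a gene can have several, and not every gene has an entry in the RefSeq table. A match is a description of letters, not a shown binding site. The lists were written with earlier results of these data known, so these shares are a description and not evidence.

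The promoters of Phf11b, Rsad2 and Oas1c are shown as the 3 of highest ratio among antiviral effectors with an entry that holds the core; Rsad2 and Oas1c were chosen after their values were seen. Capitals mark the core on either strand. Phf11b lies on the minus strand at chr14:59341281-59341580, with the match beginning 50 bases before the start. Rsad2, which encodes viperin, lies on the minus strand at chr12:26456403-26456702 with the match 119 bases before the start, and had 103, 334, 100. and 79.9 CPM. Oas1c lies on the minus strand at chr5:120812465-120812764 with matches 113 and 107 bases before the start, and had 12.2, 34.9, 15.3 and 15 CPM. Each is on GRCm38.p6.
Phf11b promoter: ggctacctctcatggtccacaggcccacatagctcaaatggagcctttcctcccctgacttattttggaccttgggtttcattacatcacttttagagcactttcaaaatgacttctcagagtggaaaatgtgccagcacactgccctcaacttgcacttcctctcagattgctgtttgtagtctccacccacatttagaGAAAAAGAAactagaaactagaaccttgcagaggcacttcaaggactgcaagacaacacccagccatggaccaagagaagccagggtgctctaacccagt
Rsad2 promoter: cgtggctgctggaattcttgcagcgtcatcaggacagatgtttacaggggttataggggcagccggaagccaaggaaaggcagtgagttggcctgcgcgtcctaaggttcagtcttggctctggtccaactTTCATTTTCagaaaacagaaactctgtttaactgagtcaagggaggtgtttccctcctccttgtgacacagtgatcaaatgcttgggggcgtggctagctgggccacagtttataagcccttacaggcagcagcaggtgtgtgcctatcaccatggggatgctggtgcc
Oas1c promoter: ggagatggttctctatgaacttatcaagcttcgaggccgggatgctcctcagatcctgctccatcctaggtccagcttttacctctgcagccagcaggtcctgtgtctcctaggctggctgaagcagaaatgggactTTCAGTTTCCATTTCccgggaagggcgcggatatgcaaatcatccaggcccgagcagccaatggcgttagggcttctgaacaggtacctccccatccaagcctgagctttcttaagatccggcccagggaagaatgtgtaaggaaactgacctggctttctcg

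Antigen presentation genes divided by class. Of 26 genes of the MHC class I path and the immunoproteasome, 0 were 2-fold apart in either direction, 18 lay above 0, and the median log2 ratio was 0.09. The classical genes H2-K1 and H2-D1 had log2 ratios of 0.07 and 0.02. H2-T24, a non-classical gene, had the highest ratio, 2.4, 4.34, 2.52 and 3 CPM, and H2-Q6 the lowest, 486, 427, 490.3 and 449 CPM. The catalytic subunit gene Psmb8 of the immunoproteasome had 132, 211, 127 and 127 CPM.

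Some MHC class II genes were lower in sh-NC/HG. Ciita had 4.66, 0.3, 4.34 and 4.23 CPM, a level 15.5-fold (7.27 to 39.8) lower than in sh-NC. The chain genes it controls lie together on chromosome 17: H2-Ab1 (chromosome 17, 34257689 to 34269419) had 32.2, 5.35, 22.3 and 25.4 CPM, which was 6.02-fold (4.95 to 7.34) lower. H2-Aa (chromosome 17, 34282744 to 34287823) had 3.02, 0.364, 2.75 and 3.66 CPM, which was 8.28-fold (4.19 to 21.3) lower, and H2-Eb1 (chromosome 17, 34305867 to 34316674) had 44.9, 7.71, 42.4 and 50.6 CPM, which was 5.81-fold (4.95 to 6.86) lower. In all 4 genes sh-NC/HG lay below the other 3 libraries. The invariant chain gene Cd74 had 137, 94.5, 125 and 84.8 CPM, so that it was lowest in sh-JAML/HG. Of 14 class II genes past the minimum 4 were lower (28.6%, beside 3.27% of all genes), 0 higher (beside 4.65%) and 4 above 0. Rfx5, which encodes a factor that binds class II promoters with Ciita, had 47.2, 48.2, 55.4 and 50.4 CPM, and the DM genes were near even, with a log2 ratio of 0.21 for H2-DMa.

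**Figure D3:**
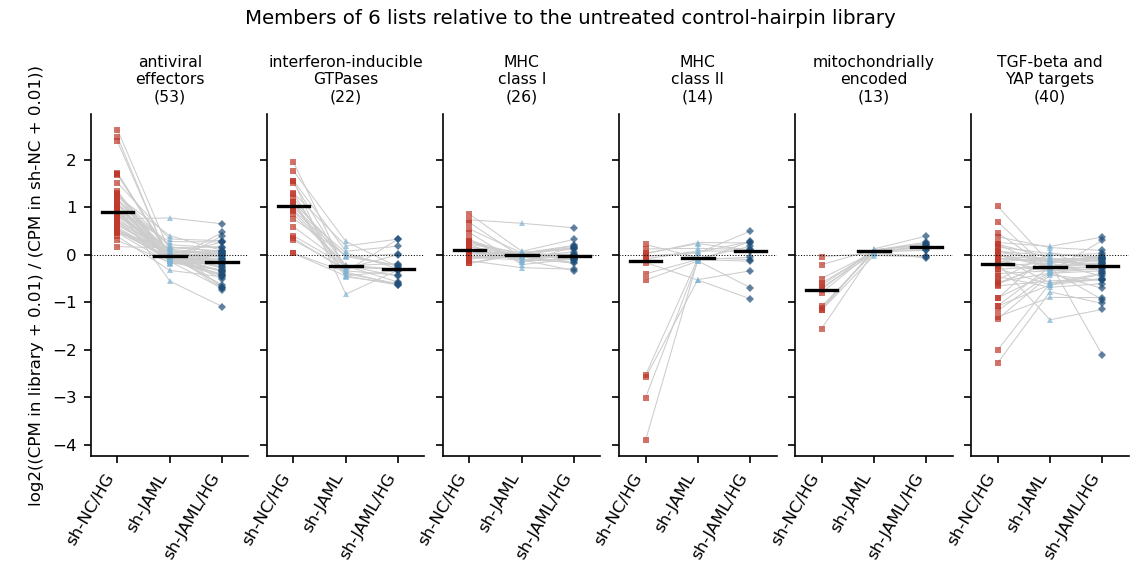
Log2 level of each member of 6 lists in the other 3 libraries relative to sh-NC, with 0.01 CPM added to each level; grey lines join a gene, black bars are medians. The antiviral and GTPase members lie above 0 in sh-NC/HG and around or below 0 in both sh-JAML libraries, 4 class II genes lie far below 0 in sh-NC/HG alone of the 3 libraries drawn, and the mitochondrially encoded protein-coding genes lie below 0 there.

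Some genes of glucose use were higher in the glucose-exposed control cells. Ldha, which encodes the muscle-type lactate dehydrogenase subunit (chromosome 7, 46841475 to 46855627), had 333, 850.3, 294 and 301 CPM, a difference of 2.55-fold (2.48 to 2.62), and the 3 other libraries lay within a narrow band. Pfkl, the liver-type phosphofructokinase gene, had 127, 306, 142 and 138 CPM, a difference of 2.42-fold (2.31 to 2.53). Aldoc, an aldolase gene at low counts here, had 0.352, 3.42, 0.698 and 0.969 CPM (9.71-fold (4.52 to 25)). The lactate exporter gene Slc16a3 (MCT4) had 0.44, 1.06, 0.536 and 0.638 CPM.

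Of 33 genes of glucose transport and glycolysis past the minimum 4 were higher (Aldoc, Ldha, Pfkl, Slc16a3), 0 were lower and 23 lay above 0. The share higher was 12.1%, beside 4.65% of all genes, and Slc16a3 passed the minimum only through sh-NC/HG. The median log2 ratio was 0.43, beside 0.06 in the sh-JAML pair. Slc2a1, the GLUT1 transporter gene, had 74.7, 94.8, 72.4 and 68.3 CPM (1.27-fold (1.19 to 1.36)). Pgk1 and Tpi1 had log2 ratios of 0.91 and 0.69, and Hk2, the inducible hexokinase gene, 0.79. On the low side, Ldhb, the heart-type lactate dehydrogenase subunit, had 319.8, 170.4, 317 and 277 CPM, a direction opposite to that of Ldha. Pdk4, an inhibitor of pyruvate dehydrogenase, had 2.12, 1.06, 2.77 and 2.41 CPM.

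Promoters of the glycolysis and hypoxia lists were searched on either strand for ACGTG, the core of the hypoxia response element. A match is a description of letters, not a shown binding site. The core was found in 21 of 50 glycolysis promoters (42.0%) and 16 of 27 hypoxia promoters (59.3%), beside 25.1% of promoters of genes past the minimum. Among genes at least 2-fold higher the share was 18.4%. Of the 2 RefSeq promoters of Ldha only 1 holds the core, and that one is shown because Ldha is the higher glycolysis gene with the most counts; it was chosen after its values were seen. It lies on the plus strand at chr7:46845554-46845853 (RefSeq, GRCm38.p6), and capitals mark its 5 matches. Each CACGTG counts as 2 overlapping matches, 1 on either strand.
Ldha promoter: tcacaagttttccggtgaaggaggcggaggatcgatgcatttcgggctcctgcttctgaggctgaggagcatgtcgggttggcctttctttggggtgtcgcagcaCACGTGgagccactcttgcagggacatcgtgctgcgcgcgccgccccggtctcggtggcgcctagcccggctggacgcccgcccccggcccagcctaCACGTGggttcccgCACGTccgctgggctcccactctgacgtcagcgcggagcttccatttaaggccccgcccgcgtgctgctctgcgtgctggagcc

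Hypoxia targets had a median of 0.30 over 27 genes, with 4 higher (14.8%), 1 lower (3.7%) and 17 above 0 (sh-JAML pair -0.07). The shares of all genes were 4.65% and 3.27%. Epas1, which encodes HIF-2 alpha, had 0.717, 3.35, 0.536 and 0.721 CPM (4.68-fold (2.67 to 9.09)), and Car12, a membrane carbonic anhydrase gene, had 10.8, 25.5, 18 and 17.1 CPM (2.37-fold (2.03 to 2.79)). Rora, a nuclear receptor gene, had 2.14, 6.58, 5.92 and 5.34 CPM, in which sh-NC and not sh-NC/HG was the library apart. Angptl4, an inhibitor of lipoprotein lipase, had 4.66, 2.11, 5.25 and 2.8 CPM, lower in both glucose-exposed libraries by 2.21-fold (1.56 to 3.21) in the control-hairpin pair and 1.87-fold (1.35 to 2.63) in the sh-JAML pair. Hif1a itself had 176, 173, 188 and 169.97 CPM.

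The direct glucose sensors' targets differed by less than 2-fold. Txnip, which encodes a thioredoxin-binding arrestin and limits glucose uptake, had 173, 278, 151 and 196 CPM. It was higher in the glucose-exposed library of both pairs, by 1.61-fold (1.54 to 1.68) and by 1.3-fold (1.24 to 1.36). Arrdc4, its paralog, had 9.48, 16.1, 10.6 and 11 CPM (1.7-fold (1.43 to 2.04)). Of the sensor genes, Mlxip (MondoA) had a log2 ratio of 0.44 and Mlxipl (ChREBP) was at 0 in all libraries. Mlx, the gene of their binding partner, had a log2 ratio of -0.07. Of 31 genes of glucose sensing, the pentose phosphate path, the polyol path, the hexosamine path and glycogen, 0 were 2-fold apart and 18 lay above 0, with a median of 0.04. Tkt, the transketolase gene, had 512, 784, 452 and 479 CPM, Sord, the sorbitol dehydrogenase gene of the polyol path, had 42.3, 62.4, 57.6 and 55.5 CPM, and Pgls, of the pentose phosphate path, had the lowest ratio with 50.3, 33.1, 39.6 and 49.6 CPM.

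Protein-coding transcripts of the mitochondrial genome were lower in sh-NC/HG, whereas its other RNAs went both ways. Of 2 mitochondrial ribosomal RNA genes past the minimum 1 was at least 2-fold higher and 0 were lower. Of 12 mitochondrial transfer RNA genes 4 were higher and 2 were lower. All 13 protein-coding genes had a ratio below 0, 5 of them past 2-fold (38.5%, beside 3.27% of all genes). Their median log2 ratio was -0.74, beside 0.10 in the sh-JAML pair. The summed level of the 13 genes was 19778, 13423, 20536 and 21212 CPM. The size of the difference varied along the genome: the complex I genes mt-Nd2 (2.95-fold (2.88 to 3.02)), mt-Nd1 (2.26-fold (2.22 to 2.29)) and mt-Nd4l (2.23-fold (2.14 to 2.33)) differed most, whereas mt-Co1, a subunit of complex IV, had a log2 ratio of -0.04 and mt-Co2 -0.21. As background, most mitochondrial genes are released from long transcripts that several genes share. The 52 nuclear genes of the respiratory chain were near even: 0 were 2-fold apart, 35 lay above 0 and the median was 0.07, with extremes of -0.29 for Ndufa9 and 0.35 for Atp5j. The part of library preparation in the mitochondrial share was not tested.

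Lipid genes differed little. None of 27 fatty acid synthesis genes was 2-fold apart, 13 lay above 0 and the median was -0.02: Fasn, the fatty acid synthase gene, had 623, 688, 548 and 544 CPM, and Srebf1, its activator, had 91.4, 117, 97.9 and 99.4 CPM. Dgat2, which makes triglyceride, had 2.1, 3.58, 1.58 and 2 CPM, and Elovl7, a fatty acid elongase gene, had 148, 88, 152 and 133 CPM. Of 32 cholesterol genes 1 was higher (Sqle, 3.12%), 1 was lower (Abca1, 3.12%) and 19 lay above 0. The shares of all genes were 4.65% and 3.27%. Sqle, the squalene epoxidase gene, had 168, 348, 128 and 233 CPM, higher in the glucose-exposed library of both pairs by 2.07-fold (1.99 to 2.16) and 1.82-fold (1.73 to 1.91). Abca1, the cholesterol exporter gene, had 3.02, 0.771, 1.73 and 3.25 CPM, 3.91-fold (2.28 to 7.04) lower in sh-NC/HG. Srebf2 had 593, 812, 504 and 507 CPM.

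Of 33 genes of fat oxidation and storage 25 lay below 0 and 8 above, with a median of -0.14 (sh-JAML pair -0.03). The 1 gene past 2-fold (3.03%, beside 3.27% of all genes lower) was Plin4, which coats lipid droplets. It had 11.2, 2.88, 9.32 and 13.3 CPM and a level 3.88-fold (2.95 to 5.19) lower in sh-NC/HG. Sirt1, a deacetylase gene tied to fat oxidation, had 23, 18.2, 20.4 and 24 CPM.

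Podocyte and basement membrane genes tended to be lower in sh-NC/HG. Of 41 past the minimum 13 lay above 0, 4 were at least 2-fold lower (9.76%, beside 3.27% of all genes) and 1 was higher (2.44%, beside 4.65%). The median log2 ratio was -0.16, beside 0.00 in the sh-JAML pair. Thsd7a, a podocyte surface protein that is a target of antibodies in membranous nephropathy, had 20.7, 2.68, 24.9 and 21.8 CPM, a level 7.74-fold (5.96 to 10.4) lower in sh-NC/HG, with the other 3 libraries close to each other. Kirrel3, a relative of nephrin, had 5.56, 1.25, 3.86 and 2.49 CPM (4.43-fold (2.93 to 6.95) lower). Col4a3 and Col4a4, chains of the mature glomerular basement membrane, had 0.779, 0.214, 0.997 and 0.768 CPM and 4.34, 1.34, 4.22 and 3.5 CPM. The chains of embryonic type had log2 ratios of -0.55 for Col4a1 and -0.59 for Col4a2.

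Several other podocyte genes were on the low side without reaching 2-fold, among them the phospholipase gene Plce1 (47.5, 24.9, 36.9 and 23.1 CPM), the dystroglycan gene Dag1 (1736, 1112, 1677 and 1232 CPM) and Itga3 (624, 443, 526 and 490.1 CPM), the integrin subunit that holds podocytes to laminin. Bmp7, a growth factor made by podocytes, was on the high side, with 0.553, 3.74, 1.52 and 0.816 CPM and a level 6.76-fold (3.59 to 14) higher. The actin-linked genes Actn4 and Cd2ap had log2 ratios of 0.14 and 0.05. In this list sh-NC held the highest level of the 4 libraries in 51.2% of genes, beside 21.3% of all genes.

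**Figure D4:**
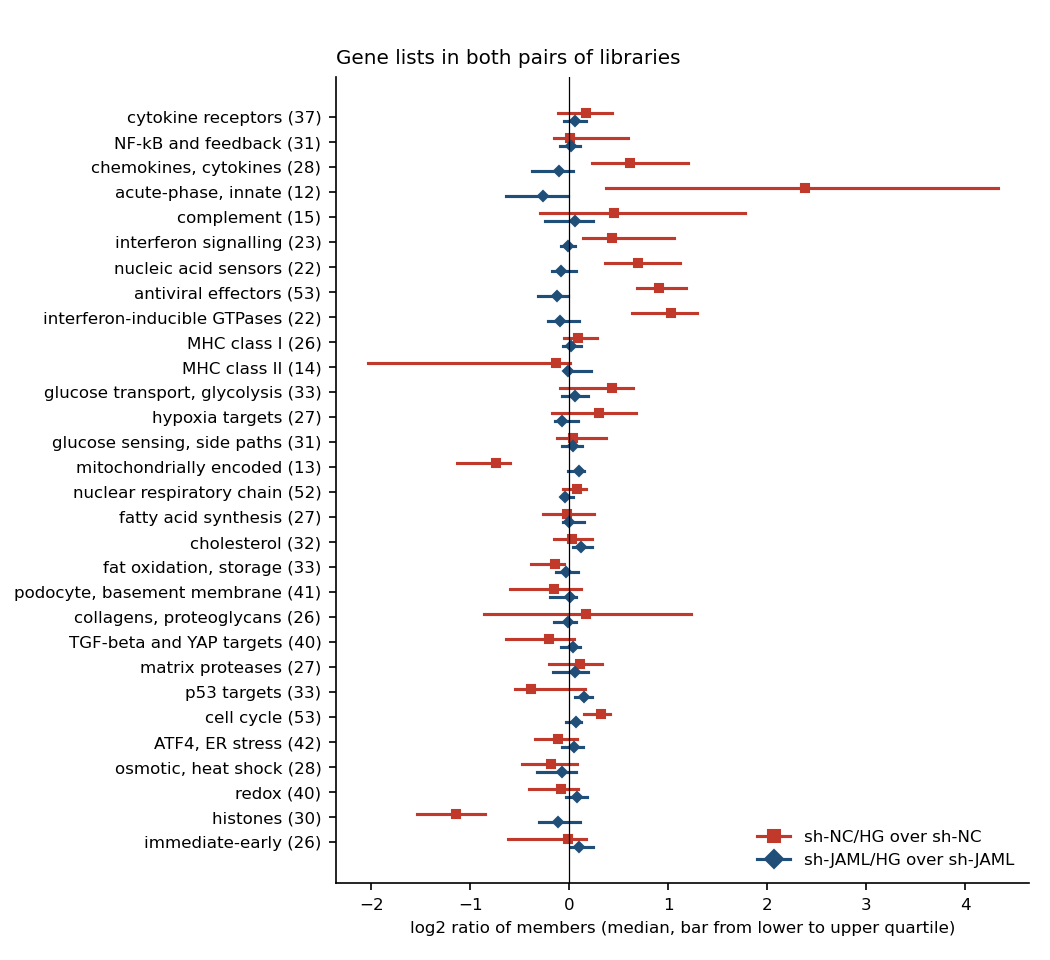
Median log2 ratio of the members of 30 gene lists (marker) with the lower to upper quartile (bar), for sh-NC/HG over sh-NC and for sh-JAML/HG over sh-JAML; the number of members past the count minimum is in parentheses. The control-hairpin pair has medians of 0.91 for antiviral effectors, -1.15 for histones and -0.74 for mitochondrially encoded protein-coding genes, while the sh-JAML medians of the lists drawn lie between -0.26 and 0.15.

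Matrix genes went both ways. Of 26 collagens, small leucine-rich proteoglycans and elastic fibre genes, 9 were higher, 6 lower and 14 above 0, with a median of 0.17. The shares were 34.6% and 23.1%, beside 4.65% and 3.27% of all genes, but Dcn and Col6a3 passed the minimum only through sh-NC/HG. Decorin (Dcn), which binds collagen and TGF-beta, had counts of 34, 601, 64 and 49 (15.1-fold (7.91 to 37.7) higher), and fibromodulin (Fmod) had 0.905, 7.52, 1.15 and 1.13 CPM (8.31-fold (5.12 to 14.4) higher). Collagen VI genes were among the higher members: Col6a2 (chromosome 10, 76595762 to 76623630) had 2.09, 12.5, 3.23 and 3.38 CPM (5.97-fold (4.25 to 8.34)), its neighbour Col6a1 had 81.9, 263, 91.7 and 90.6 CPM, and Col6a3 had 0.729, 3.39, 0.274 and 0.236 CPM. On the low side stood Podn (17.2, 5.13, 11.2 and 14.3 CPM, 3.34-fold (2.7 to 4.14) lower), Fbln5 (3.73, 1.45, 1.94 and 2.47 CPM) and Col12a1 (88.6, 37.4, 68.1 and 69.9 CPM). The sh-JAML pair had 0 genes of this list past 2-fold.

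The list of TGF-beta ligands and receptors with targets of SMAD factors and of the YAP coactivator was on the low side. Of 40 past the minimum 7 were lower (among them Pmepa1, F3, Ccn2, Thbs1, Ankrd1 and Smad7), 1 was higher (the ligand gene Tgfb3) and 12 lay above 0, with a median of -0.20 beside 0.04 in the sh-JAML pair. The shares were 17.5% lower and 2.5% higher, beside 3.27% and 4.65% of all genes. Pmepa1, a feedback inhibitor of TGF-beta signalling, had 76.6, 19, 50.4 and 53.9 CPM (4.02-fold (3.62 to 4.48) lower), and tissue factor (F3) had 301, 117, 222 and 206 CPM (2.56-fold (2.45 to 2.68) lower). Ccn2, the connective tissue growth factor gene, had 342, 138, 183 and 182 CPM, and Fn1 (fibronectin) had 2579.9, 1373, 1976 and 2137 CPM. For Pmepa1 and F3 both sh-JAML libraries lay between the control-hairpin libraries, and sh-NC held the highest level of the 4 in 62.5% of the list. Tgfb3 itself had counts of 72, 172, 64 and 17, 2.04-fold (1.15 to 3.75) higher in sh-NC/HG.

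Among matrix proteases and their inhibitors 2 of 27 were higher (7.41%) and 1 lower (3.70%), near the shares of all genes (4.65% and 3.27%), and Mmp9 passed the minimum only through sh-NC/HG. Mmp9, a gelatinase gene, had 0.541, 2.94, 0.349 and 0.307 CPM (5.43-fold (2.77 to 11.1)), and Mmp19 had 3.91, 13.7, 6.45 and 7 CPM (3.49-fold (2.71 to 4.52)). Adam12 had 3.32, 1.41, 1.81 and 1.22 CPM (2.35-fold (1.52 to 3.68) lower).

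Proliferation genes were slightly higher and p53 targets slightly lower. Of 53 cell cycle genes 48 lay above 0, with a median log2 ratio of 0.33. At least 2-fold higher was 1 (1.89%, beside 4.65% of all genes), E2f2 (8.69, 18.3, 10.9 and 9.73 CPM). Mki67 had 293, 433, 315 and 348 CPM and Top2a 307, 472, 314 and 350.5 CPM, and the sh-JAML pair had a median of 0.07. Of 33 p53 targets 10 lay above 0 and the median was -0.39, beside 0.15 in the sh-JAML pair. Cdkn1a, the p53-induced inhibitor of cell cycle kinases, had 711, 487, 657 and 799 CPM, and the pro-death genes Bbc3 and Bax had log2 ratios of -0.83 and -0.73. Pmaip1 (Noxa) had 100.2, 48.6, 93.3 and 51.9 CPM, lower in the glucose-exposed library of both pairs. Aen, a p53-induced nuclease gene, had 66.9, 25.7, 29.9 and 63.1 CPM, lower in sh-NC/HG and higher in sh-JAML/HG than in the partner library. Sesn3 had 41.7, 203, 186 and 166 CPM, in which sh-NC was the library apart. Trp53 itself had 198, 185, 191 and 203 CPM.

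Replication-dependent histone genes were lower. Of 61 listed 30 passed the minimum, 17 were at least 2-fold lower (56.7%, beside 3.27% of all genes) and 1 was higher (3.33%, beside 4.65%). Ratios above 0 numbered 2, with a median of -1.15 beside -0.12 in the sh-JAML pair. Hist1h4h had 5.63, 0.975, 4.31 and 3.97 CPM (5.78-fold (3.62 to 9.38) lower), and Hist1h1c had 249.6, 136, 219.7 and 182 CPM. Their summed level was 477.0, 253.5, 413.9 and 379.1 CPM. Most of these transcripts end in a stem loop and lack a poly(A) tail, so their level in a library also depends on how RNA was selected. Whether that selection differed between the libraries was not tested.

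In the ATF4 and ER stress list 2 of 42 were higher (4.76%), 1 lower (2.38%) and 17 above 0 (median -0.12), which is near the shares of all genes (4.65% and 3.27%). Aldh1l2, a mitochondrial folate enzyme gene, had 1.9, 5.35, 2.55 and 2.39 CPM, Atf3 had 11.3, 26.1, 11.3 and 10.3 CPM (2.31-fold (1.98 to 2.7)), and the chaperone gene Dnajb9 had 45.8, 21.9, 43.7 and 41.5 CPM (2.09-fold (1.87 to 2.33) lower). In the osmotic and heat shock list 0 of 28 were higher and 3 were lower (10.7%, beside 3.27% of all genes). Slc5a3, the myo-inositol transporter gene that is raised by hypertonic medium, had 44.8, 22, 42 and 22.1 CPM, lower in the glucose-exposed library of both pairs by 2.03-fold (1.82 to 2.27) and 1.9-fold (1.69 to 2.13). Sgk1, a salt- and steroid-regulated kinase gene, had 26.4, 8.94, 19.6 and 19.3 CPM (2.95-fold (2.52 to 3.49) lower), and Dnajb4 had 144, 71.6, 139 and 138 CPM. Akr1b3, the aldose reductase gene, had 163, 197, 166 and 91.9 CPM.

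Redox genes included some of the larger differences among abundant transcripts. The metallothionein genes Mt1 and Mt2, whose products bind zinc and copper, had 438, 119, 698 and 909 CPM and 109, 41.1, 193 and 241 CPM, lowest in sh-NC/HG and highest in sh-JAML/HG. Mt1 was 3.68-fold (3.52 to 3.84) lower in sh-NC/HG, and 73.5% of the exon bases of Mt2 are shared with another gene. Nox4, an NADPH oxidase gene first described in kidney, had 49.3, 17.4, 47.6 and 46.4 CPM (2.84-fold (2.53 to 3.2) lower), with the other 3 libraries alike. Gclc, the rate-limiting enzyme of glutathione synthesis, had 196, 93.3, 213 and 224 CPM. Gstm2, a glutathione transferase gene, had 81.4, 199.9, 67.7 and 82.7 CPM (2.46-fold (2.32 to 2.6) higher), and Osgin1 had 6.8, 17.1, 7.19 and 7.86 CPM (2.52-fold (2.07 to 3.09) higher). Over 40 redox genes 2 were higher (5%), 7 lower (17.5%) and 16 above 0, with a median of -0.08. The shares of all genes were 4.65% and 3.27%.

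Immediate-early genes had 1 higher (Atf3, 3.85%), 3 lower (11.5%) and 13 of 26 above 0. The shares of all genes were 4.65% and 3.27%. Egr2 had 3.21, 1.14, 2.55 and 3.33 CPM (2.82-fold (1.8 to 4.75) lower), Dusp6, a phosphatase gene induced by ERK signalling, had 21.7, 9.8, 15.3 and 15.6 CPM (2.21-fold (1.88 to 2.6) lower), and Myc had 28, 12.1, 16 and 18.6 CPM (2.31-fold (2 to 2.68) lower). For Myc and Dusp6 the sh-JAML libraries lay between the control-hairpin libraries.

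Outside the lists, the largest ratios among protein-coding genes that averaged 400 counts or more and shared under 10% of their exon bases included Tmem170b, Abi3bp, Neurl3 and Adgrb2 on the high side. Tmem170b had 2.97, 30.5, 3.86 and 23.4 CPM, higher in the glucose-exposed library of both pairs by 10.3-fold (7.86 to 13.6) and 6.06-fold (4.73 to 7.75). Abi3bp, a matrix protein gene, had 4.93, 49.8, 3.74 and 3.78 CPM (10.1-fold (8.23 to 12.6)), with both sh-JAML libraries near sh-NC. Neurl3, a ubiquitin ligase gene, had 11.8, 77.1, 14 and 11 CPM (6.55-fold (5.72 to 7.54)), and Adgrb2, an adhesion receptor gene, had 6.11, 35.6, 9.59 and 8.09 CPM (5.83-fold (4.8 to 7.08)).

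On the low side, Sfrp1, a secreted Wnt antagonist gene, had 12.5, 0.686, 8.3 and 7.2 CPM, a level 18.2-fold (11 to 32.4) lower in sh-NC/HG. Cyp26b1, which degrades retinoic acid, had 48.9, 7.66, 23.4 and 29.3 CPM (6.38-fold (5.43 to 7.51) lower), and Stard8, a GTPase-activating protein gene on chromosome X, had 113, 19.1, 116 and 101 CPM (5.92-fold (5.35 to 6.57) lower). In these 3 genes sh-NC/HG was the lowest library. Zfp46 and Lrrc8d had another pattern: Zfp46 had 29.4, 3.85, 3.64 and 2.44 CPM and Lrrc8d, a volume-regulated anion channel subunit gene, had 73.9, 11.9, 11.9 and 12.4 CPM, so that sh-NC stood above the other 3 libraries. Over all genes, the mean of the sh-JAML libraries was nearer to sh-NC than to sh-NC/HG for 540 of the 660 higher genes (81.8%) and 369 of the 464 lower genes (79.5%), beside 69.7% of all genes. The remaining 120 and 95 genes are those in which sh-NC was the farther library. Jaml, the target of the hairpin, was at 0 in all 4 libraries, so that its level could not check the labels.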

How the data were processed

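RNA of 4 MPC cultures was sequenced, 1 library per group. The authors deposited 1 table of estimated counts per Ensembl gene and library, without scaling between libraries. The submitters' processing notes name CASAVA 1.8, TopHat2 2.0.6 and build mm10. No source used here gives the counting tool or annotation. A blank line at the end of the table was left out. GENCODE M21 gave symbols, positions and exons for 55480 genes and left 913 unmatched. Columns were matched to samples by name; those of sh-NC and sh-NC/HG name no hairpin.

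TMM factors (edgeR 4.0.16 in R 4.3.3) were computed over genes averaging 50 counts or more, and a prior count of 1 entered the log2 ratios. Folds carry exact 95% Clopper-Pearson intervals on counts divided by 4. With 1 library per group no test was made. The members, the 35 lists (1179 symbols, 17 in more than 1 list) and the rules were chosen with earlier results of these data known. Named genes were the 10 highest and 10 lowest ratios among protein-coding genes averaging 400 counts or more with under 10% shared exon bases, up to 3 highest and 3 lowest members per list at least 2-fold apart (otherwise the highest and the lowest), and a fixed group of 15 genes; other genes, including list members beyond these and markers named at or near 0, were chosen after their values were seen. A few genes that these rules name are not reported here, though counts over lists include them. Promoters and their motif shares came from RefSeq (GRCm38.p6). Alternatives were DESeq2 1.42.0 size factors, upper-quartile factors, total counts, other prior counts, filters and thresholds, and leaving out mitochondrially encoded or shared-exon genes. Ratios and intervals were checked on simulated data. Python 3.11.15, numpy 2.4.6, pandas 2.3.3, scipy 1.17.1 and matplotlib 3.10.9 were used.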

Additional observations from a re-analysis of the deposited data

Results flagged for a closer look

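For 5 named genes with a count above the floor in each pair, the log2 ratio of the control-hairpin pair and that of the sh-JAML pair passed 2-fold in opposite directions. With 1 library per group this difference was not tested. Lifr had a ratio of 3.79 in the control-hairpin pair and -1.32 in the sh-JAML pair, a difference of 5.11. Cxcl1 had 3.40 and -1.27, a difference of 4.66. Saa3 had 4.59 and -4.88, a difference of 9.47, but its count in sh-JAML/HG was 0, so that the size of the second value depends on the prior count. Tgfb3 had 1.02 and -1.93, a difference of 2.94, from counts of 72, 172, 64 and 17. Aen had -1.38 and 1.08, a difference of -2.46, and its levels of 66.9, 25.7, 29.9 and 63.1 CPM put sh-NC with sh-JAML/HG and sh-NC/HG with sh-JAML. Cxcl5 is not among the 5 because both of its sh-JAML counts, 9 and 0, lie under the floor.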

How the results depend on the processing

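The counts of 660 higher and 464 lower genes depended on the filter and the threshold. Without a filter beyond a count above 0 they were 4247 and 3724, and at a mean count of at least 400 they were 247 and 204. At 1.5-fold they were 1424 and 1271, and at 4-fold 163 and 88. Under DESeq2 size factors, upper-quartile factors, total counts, a prior count of 4 or without mitochondrially encoded genes they ran from 634 to 666 and from 450 to 463. Without genes that share exon bases they were 543 and 349. Among 128 named genes 1, Tgfb3, crossed the 2-fold mark (log2 ratio 0.99 at a prior count of 4), and 0 changed sign under the scalings. List medians kept their sign under the scalings; at a mean count of at least 400 those of collagens (-0.04), immediate-early genes (0.05), NF-kB genes (-0.01) and tubule markers (-0.14) changed it, and the acute-phase median was 1.37 instead of 2.39. Without a filter the medians of immediate-early genes (0.01) and tubule markers (-0.03) changed sign, and without shared-exon genes that of leukocyte markers (0.30) did. The medians of histones at a mean count of at least 400 (-0.86) and of GTPases without shared-exon genes (0.93) no longer reached 2-fold, and the largest shift was that of erythroid genes without a filter (from -6.93 to -2.66). No paired analysis was possible because each group has 1 library; for the same reason no library could be left out. Depth limits genes near 12 units, where 1 fragment changes a ratio, and the absence of replicates limits every ratio.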

Other observations

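The genes in these paragraphs lie outside the lists and the naming rule and were chosen after their values were seen; levels are in the order sh-NC, sh-NC/HG, sh-JAML and sh-JAML/HG. On the high side, Cebpd, a transcription factor gene induced by interleukin and gp130 signals, had 9.42, 42.5, 6.87 and 6.37 CPM. Ly6a, which encodes the interferon-induced surface protein Sca-1, had 7.71, 41, 15.3 and 11.6 CPM, and Il18bp, the gene of a soluble interleukin-18 inhibitor that interferon-gamma induces, had 3.99, 13.4, 3.63 and 3.49 CPM. Rnf213, a very large ubiquitin ligase gene of the interferon response, had 443, 1366, 452 and 425 CPM. Cd248, a stromal surface protein gene, had 2.9, 11.9, 2.52 and 2.98 CPM. All 5 were highest in sh-NC/HG. On the low side, Cdh6, a cadherin gene of the developing nephron, had 452, 110.1, 449.997 and 398 CPM, and Jag1, a Notch ligand gene, had 327, 117, 309.9 and 261 CPM. Smad9, which encodes a BMP-responsive SMAD, had 7.49, 1.46, 7.97 and 8.89 CPM. Mycn had 10.7, 2.97, 7.9 and 6.32 CPM and Adgrg1, an adhesion receptor gene, had 716, 262, 563 and 652 CPM. All 5 of these were lowest in sh-NC/HG, and for Cdh6, Jag1, Smad9 and Adgrg1 both sh-JAML libraries lay nearer to sh-NC. Efna1 and Igfbp2 had 77.5, 23.3, 27.6 and 30.5 CPM and 28, 7.29, 9.81 and 9.42 CPM, in which sh-NC was the library apart.

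A few genes with mean counts above 400 took high and low values in a pattern that followed neither glucose nor hairpin. Rlf, a zinc finger gene, had 14.3, 64.5, 53.9 and 13.8 CPM, and Zfp7 had 8.51, 29.1, 38.2 and 8.65 CPM, so that both were high in sh-NC/HG and sh-JAML and low in the other 2 libraries. Exosc6, an RNA exosome subunit gene, had the reverse pattern with 37.5, 5.28, 2.31 and 29.9 CPM. Zbed6, which lies within another gene, had 68.1, 1.2, 2.36 and 2.39 CPM, and Crk, a signalling adaptor gene, had 152, 55.8, 51.1 and 44.7 CPM, with sh-NC above the other 3 in both. Protocadherin gamma genes, which share their last exons, moved in opposite directions in the control-hairpin pair. Unlike the genes above, Pcdhgb4 and Pcdhgc3 were high in both glucose-exposed libraries and low in the other 2. Their levels were 0.101, 91, 0.0748 and 74.7 CPM and 10.8, 97.2, 6.98 and 80.4 CPM. Pcdhga6 had 25.4, 0.0964, 0.0249 and 0.0591 CPM, with sh-NC above the other 3. How reads on shared bases were assigned is not given in the sources used here, and its part in these values was not tested. By annotation class, 32 of 324 lincRNA genes reached 2-fold on the high side and 14 on the low side, beside 529 and 355 of 12069 protein-coding genes.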
